A study of Mus musculus with 14 samples.

Results

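Matrix metalloproteinases are zinc-dependent proteases that cut collagens, laminins and many secreted or membrane-bound proteins, and the tissue inhibitors of metalloproteinases (Timp proteins) bind their active sites and block them. Transcripts of 6 metalloproteinases (Mmp7, Mmp2, Mmp9, Mmp14, Mmp15 and Mmp19) and of all 4 inhibitors (Timp1 to Timp4) are described here in ductal cells and hepatocytes of injured mouse livers. They were picked by gene symbol, as 10 of the 20377 symbols in the expression table, and a symbol with several transcript rows is shown by its row of highest mean. Of the 10 genes, 9 reached the level required for testing, and Timp4 did not.

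Each RNA-seq library came from cells of C57BL/6 mouse livers. The mice were adult chimeras whose mature hepatocytes had been marked with a red fluorescent protein, and all of them received 0.1% DDC for 5 to 8 weeks. DDC (3,5-diethoxycarbonyl-1,4-dihydrocollidine) is a porphyrinogenic toxicant that injures bile ducts and provokes a ductular reaction, the growth of small duct-like structures into the liver lobule. Hepatocyte-derived ductal cells (5 libraries, numbered 219, 220, 225, 248 and 611) were called donor cells by the labels. They were sorted by flow cytometry as positive for the ductal surface antigen MIC1-1C3 and the red marker mTomato, with low side scatter and without CD11b, CD26, CD31 and CD45. Cholangiocyte-derived ductal cells (5 libraries, 118, 219, 220, 225 and 611) were called host cells and met the same gate except that mTomato was absent. Hepatocytes of DDC-treated livers gave 4 libraries (118, 225, 248 and 611), and the labels do not say whether they carried the red marker. No untreated liver was analysed here, so no level below is a response to DDC. The ductal populations are called hepatocyte-derived cells and cholangiocyte-derived cells below, and values are listed in this order of libraries throughout.

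In liver, metalloproteinases and their inhibitors set how fast scar matrix is laid down and removed, and stellate cells, macrophages, neutrophils and epithelial cells each make different members. Mmp7, called matrilysin, is a secreted protease of glandular and ductal epithelium that is known from diseases of the bile ducts. Mmp14 and Mmp15 are anchored in the plasma membrane, and Mmp14 together with Timp2 is known to activate the secreted precursor of Mmp2.

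The sorted populations held the transcripts their names call for, together with some of other cells. All 11 biliary ductal markers reached 1 RPKM (reads scaled to the length of the transcript and the size of the library, a level per length) in at least 1 library of both ductal groups. The summed level of these markers was 17009 to 19812 RPKM in hepatocyte-derived cells, 20626 to 22210 in cholangiocyte-derived cells and 643 to 1428 in hepatocytes. The 9 hepatocyte markers summed to 5014 to 9847, 3105 to 4545 and 46385 to 64514 RPKM in the same groups. Hepatocyte library 118 stood apart from the other 3 hepatocyte libraries. Its 12 macrophage markers summed to 1546.5 RPKM against 31.4 to 42.2, its 13 stellate cell and fibroblast markers to 162 against 5.03 to 7.67, and its ductal keratin Krt19 was 10.36 against 0.09 to 0.67 RPKM. Among cholangiocyte-derived cells, libraries 118 and 220 had stellate sums of 450.5 and 522.9 RPKM against 39.6 to 91.3 in the other 3. In a sorted bulk sample, fewer cells of a type and less RNA per cell cannot be told apart. The estimated depth of the libraries was 20700000 to 29600000 reads.

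The 3 populations were compared in pairs by a single fit of all genes to log2(RPKM + 1), and a gene was called higher or lower where its adjusted p was under 0.05. The first pair asked what differs between ductal cells of hepatocyte origin and the cells that remained hepatocytes. Of the 9 tested metalloproteinase and inhibitor genes, 6 were called higher (Mmp7, Mmp14, Mmp15, Timp1, Timp2 and Timp3) and 1 lower (Mmp19). Among all 12638 tested genes, 66.2% were called higher and 14.8% lower, 81.0% in all, so the count of 7 is close to the background. Groups that did not overlap tell the same: 5 of the 9 genes lay wholly above the hepatocytes and 1 below, 6 in all, beside 59.9%, 12.4% and 72.2% of all tested genes. The median log2 fold change was 1.84 over the 9 genes and 0.67 over all tested genes. Rescaling the libraries by median ratios moved the median over all genes to 0.01 and the split of calls to 4670 higher and 4612 lower, against 8363 higher and 1873 lower on the deposited scale. Fold changes of the deposited values against hepatocytes are therefore to be read beside these medians.

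Cholangiocyte-derived cells against hepatocytes asked the same of ductal cells of biliary origin. Here 7 of 9 genes were called higher (Mmp7, Mmp2, Mmp9, Mmp14, Timp1, Timp2 and Timp3) and 1 lower (Mmp19), beside 67.1% higher, 17.4% lower and 84.4% in all among the tested genes. The libraries of 5 genes lay wholly above the hepatocytes and those of 1 below, beside 60.5% and 14.7% of all tested genes. The median log2 fold change was 1.83 over the 9 genes and 0.76 over all genes, and after rescaling by median ratios the median over all genes was 0.05, with 5051 genes higher and 4821 lower in place of 8475 and 2195. These first comparisons share the hepatocyte libraries. The third comparison set the ductal cells of the separate origins against each other. Of the 9 genes, 2 were called higher in hepatocyte-derived cells (Mmp15 and Mmp19) and 3 lower (Mmp7, Mmp2 and Timp2), beside 15.1% higher, 21.0% lower and 36.2% in all among the tested genes. The hepatocyte-derived libraries lay wholly below the cholangiocyte-derived ones for 4 genes (Mmp7, Mmp2, Timp2 and Timp3) and above for 1 (Mmp19), beside 20.4% and 13.4% of all tested genes. Median log2 fold changes were -0.29 over the 9 genes and -0.03 over all genes. After quantile normalization the split over all genes was 3069 higher and 2403 lower, in place of 1913 and 2657.

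**Figure D1:**
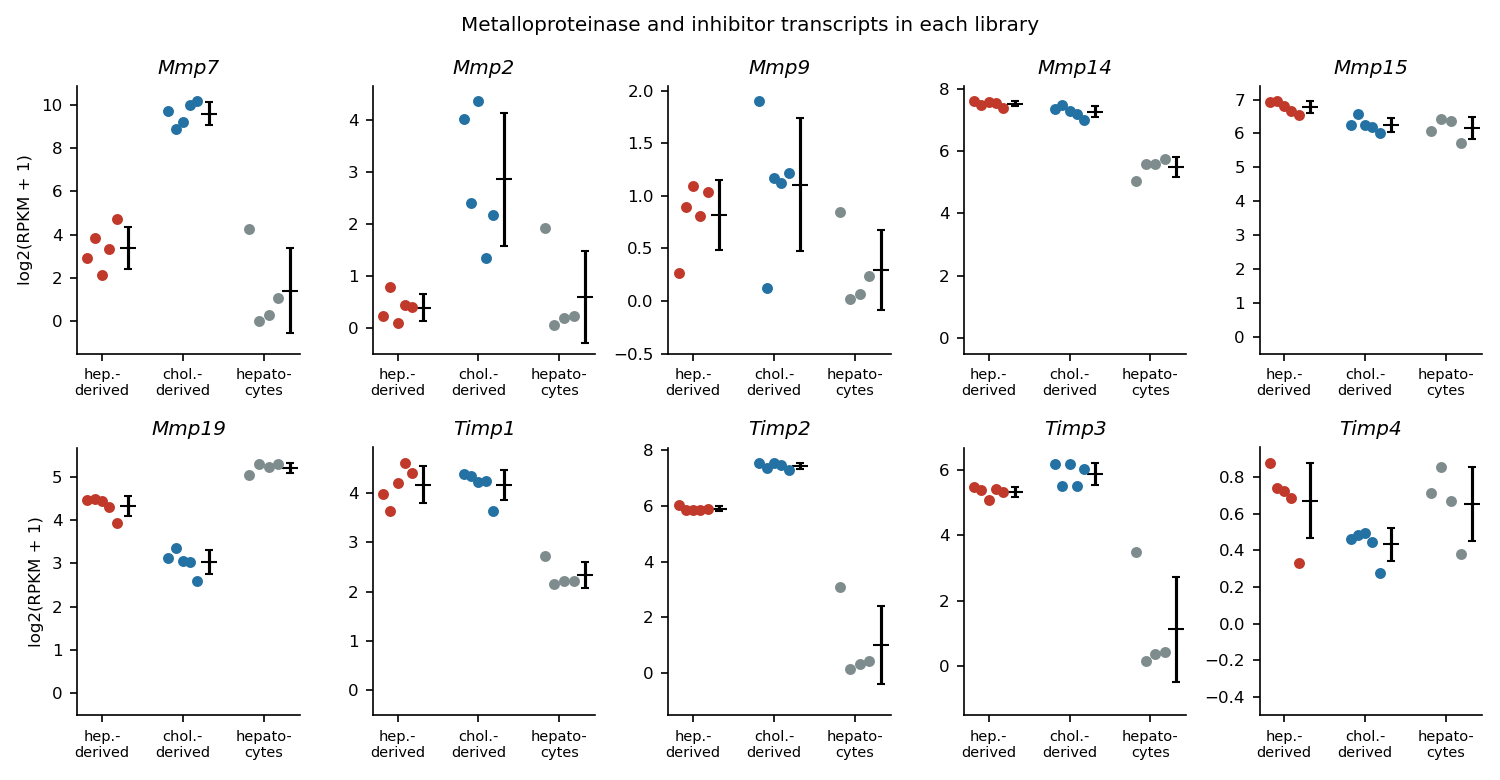
Level of each metalloproteinase and inhibitor gene as log2(RPKM + 1), with a point per library for hepatocyte-derived cells (red, n = 5), cholangiocyte-derived cells (blue, n = 5) and hepatocytes (grey, n = 4), and the mean ± SD to the right of each group. Vertical axes differ between panels. Mmp7 lies between 472.34 and 1152.6 RPKM in cholangiocyte-derived cells and at or below 25.3 RPKM in all other libraries, and hepatocyte library 118 (leftmost grey point) lies above the other hepatocytes for Mmp7, Mmp2, Mmp9, Timp1, Timp2 and Timp3.

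Mmp7 had the widest difference between the ductal groups of the 9 tested genes. Its transcript (NM_010810, mouse build mm9, chromosome 9, 7692111 to 7699416, plus strand) stood at 6.67, 13.47, 3.43, 8.94 and 25.3 RPKM in the hepatocyte-derived ductal libraries. In cholangiocyte-derived cells it reached 845.44, 472.34, 582.72, 1016.45 and 1152.6 RPKM. Hepatocytes had 18.32, 0, 0.2 and 1.11 RPKM. Every cholangiocyte-derived library lay far above every other library, and hepatocyte library 118 fell within the range of the hepatocyte-derived cells. Mean levels were 11.6 ± 8.50 RPKM in hepatocyte-derived cells, 814 ± 286 in cholangiocyte-derived cells and 4.91 ± 8.95 in hepatocytes (SD, n = 5, 5 and 4). The hepatocyte mean was 0.437 ± 0.592 RPKM without library 118 (n = 3).

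Mmp7 was lower in hepatocyte-derived than in cholangiocyte-derived cells, at -6.20 ± 0.69 on the log2 scale (SE, adjusted p = 6.04e-06). The mean of the hepatocyte-derived cells was 1.42% of the cholangiocyte-derived mean, and single libraries held 0.421% to 3.11% of it. Against hepatocytes, Mmp7 was higher in cholangiocyte-derived cells by 8.19 ± 0.73 (adjusted p = 7.72e-08), a 166-fold ratio of means that became 1864-fold without hepatocyte library 118. Hepatocyte-derived cells were called higher than hepatocytes by 1.99 ± 0.73 (adjusted p = 0.0216), with groups that overlapped through library 118. The ratio of means was 2.36, and 26.5 without library 118, where the log2 fold change was 2.95 (adjusted p = 5.55e-05). That call ended without hepatocyte-derived library 611 (1.66, adjusted p = 0.0568) and without hepatocyte library 225 (1.52, 0.0811), 248 (1.61, 0.0748) or 611 (1.88, 0.0507). It also ended after rescaling by median ratios (1.54, adjusted p = 0.0948) and quantile normalization (1.15, adjusted p = 0.162).

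The hepatocyte-derived library with the most Mmp7 also had the most of several biliary markers. Library 611, at 25.3 RPKM of Mmp7, held 81.78 RPKM of the ductal keratin Krt19, against 23.44 to 43.73 in the other 4. Its level of Epcam, an epithelial adhesion molecule, was 136.28 RPKM against 60.82 to 81.87. Biliary genes differed widely in how near hepatocyte-derived cells came to the cholangiocyte-derived mean. Krt19 (6.47%) and the keratin gene Krt7 (11.8%) were low, though above the share of Mmp7, whereas the osteopontin gene Spp1 (94.3%) and the transcription factor gene Sox9 (90.1%) were near it. The mesothelial markers Msln and Gpm6a followed the same division between the ductal groups as Mmp7. Msln stood at 0.58 to 2.79 RPKM in hepatocyte-derived and 44.3 to 125.38 in cholangiocyte-derived cells, and Gpm6a at 0.36 to 2.69 and 27.65 to 45.54 RPKM. The other 4 of the 6 mesothelial markers (Upk3b, Upk1b, Wt1 and Lrrn4) stayed at or below 1.33 RPKM in every library. The library with the most Mmp7, cholangiocyte-derived 611, had the least Msln (44.3 RPKM) but the most Gpm6a (45.54 RPKM) of its group.

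The start of the Mmp7 gene is printed with those of Timp2 and Timp3, because these 3 genes had the highest fold changes of cholangiocyte-derived cells over hepatocytes among the 10. The windows run from 250 bases before to 50 bases after the start, are credited to RefSeq on build GRCm38.p6 (the expression table is on mm9), and are written 5′ to 3′ on the strand of the gene. Capitals mark matches to TGANTCA, the core that AP-1 transcription factors bind. They also mark matches to TATAAA, the core of a promoter element that places the start of transcription.
Mmp7, chr9:7691840-7692139, plus strand: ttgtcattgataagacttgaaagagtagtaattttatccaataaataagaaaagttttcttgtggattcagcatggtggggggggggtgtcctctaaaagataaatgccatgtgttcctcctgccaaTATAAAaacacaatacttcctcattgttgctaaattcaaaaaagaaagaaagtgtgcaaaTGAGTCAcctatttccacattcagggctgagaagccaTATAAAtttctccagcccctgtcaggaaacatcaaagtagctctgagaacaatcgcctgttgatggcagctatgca
Timp2, chr11:118355362-118355661, minus strand: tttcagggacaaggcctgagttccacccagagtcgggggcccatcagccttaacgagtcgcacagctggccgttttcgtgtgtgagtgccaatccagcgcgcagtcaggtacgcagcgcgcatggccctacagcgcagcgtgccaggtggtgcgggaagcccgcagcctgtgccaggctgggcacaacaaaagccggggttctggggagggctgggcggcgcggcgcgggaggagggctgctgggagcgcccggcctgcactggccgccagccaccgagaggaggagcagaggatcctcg
Timp3, chr10:86300162-86300461, plus strand: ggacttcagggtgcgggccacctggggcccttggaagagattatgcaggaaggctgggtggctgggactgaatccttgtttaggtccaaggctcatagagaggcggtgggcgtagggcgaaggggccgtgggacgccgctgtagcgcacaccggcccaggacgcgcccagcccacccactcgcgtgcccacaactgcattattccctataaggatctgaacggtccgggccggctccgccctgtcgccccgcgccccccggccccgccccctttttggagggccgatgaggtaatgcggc
The Mmp7 window, the first of 2 listed for this gene, held TGAGTCA at position -63 and TATAAA at positions -123 and -26 counted from the start, with a GC content of 39.0% and 1 CpG. It also held AGGAAG, a core bound by ETS factors, at position -108 on the opposite strand and CTTTGA, a core bound by TCF factors, at position 5 on the opposite strand. The second Mmp7 window, not printed, held neither TGANTCA nor TATAAA and had a GC content of 52.0% and 7 CpG. It held AGGAAG at position -142 and CTTTGA at position -246. The Timp2 window (GC 68.7%, 25 CpG) held none of these letters, and the Timp3 window (GC 67.0%, 24 CpG) held AGGAAG alone. On either strand, TGANTCA occurred in 7.8% of 32851 windows of the same length, TATAAA in 13.6%, AGGAAG in 35.4% and CTTTGA in 16.0%, and the median window had a GC content of 52.7% and 7 CpG. Windows were matched for 7 of the 10 genes. Mmp14, Mmp15, Timp1 and Timp4 held neither TGANTCA nor TATAAA in theirs, and Mmp2, Mmp9 and Mmp19 were not among the windows used here. A match of letters is a description and not evidence that a factor binds.

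Mmp2 and Mmp9 are the gelatinases, secreted proteases that cut denatured collagen and basement membrane collagen. Mmp2 is known mainly from stellate cells and fibroblasts, and Mmp9 from neutrophils and macrophages. Mmp2 (NM_008610, chromosome 8, 95351227 to 95377319) was at 0.16, 0.71, 0.07, 0.36 and 0.32 RPKM in hepatocyte-derived cells. Cholangiocyte-derived cells had 15.2, 4.27, 19.61, 1.54 and 3.48 RPKM, and hepatocytes 2.78, 0.04, 0.13 and 0.16 RPKM. All cholangiocyte-derived libraries were above all hepatocyte-derived ones, and among hepatocytes library 118 alone was above 1 RPKM. The log2 fold change of hepatocyte-derived against cholangiocyte-derived cells was -2.47 ± 0.52 (SE, adjusted p = 0.00165). Cholangiocyte-derived cells were also above hepatocytes (2.27 ± 0.55, adjusted p = 0.00148), although the groups overlapped through library 118 and the call was lost after quantile normalization (1.10, adjusted p = 0.0924). For hepatocyte-derived cells against hepatocytes the value was -0.21 ± 0.55 (adjusted p = 0.746).

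Stellate cell and fibroblast markers moved with Mmp2 within the cholangiocyte-derived cells, but not across all libraries. Summed over all 13, they were 10.7 to 32.1 RPKM in hepatocyte-derived cells, 39.6 to 523 in cholangiocyte-derived cells and 5.03 to 162 in hepatocytes. Of these markers, 8, 12 and 11 reached 1 RPKM in at least 1 library of the same groups, and Dcn (decorin) was the most abundant. Within the cholangiocyte-derived cells, the libraries had the same order by Mmp2 as by this sum, from library 220 at 522.9 RPKM through 118, 219 and 611 to 225 at 39.6. Hepatocyte library 118 had a sum of 162 RPKM with 2.78 RPKM of Mmp2. Cholangiocyte-derived libraries 219 and 611 had lower sums (91.3 and 65.9 RPKM) but more Mmp2 (4.27 and 3.48 RPKM). The defining stellate gene Lrat was at 0.09 to 0.49 RPKM in hepatocyte-derived and 0.39 to 2.56 in cholangiocyte-derived cells, and Pdgfrb at 0.08 to 0.52 and 0.72 to 10.3 RPKM. Lrat was lowest of the cholangiocyte-derived libraries in 219, unlike Mmp2. In hepatocyte library 118, Lrat was at 2.2 and Pdgfrb at 1.57 RPKM. Without cholangiocyte-derived libraries 118 and 220, the remaining 3 had 1.54 to 4.27 RPKM of Mmp2, which was still above every hepatocyte-derived library. With hepatocyte library 118 also left out, Mmp2 no longer reached 1 RPKM in 4 libraries and was not tested. The part of stellate cells in the Mmp2 difference was not tested.

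**Figure D2:**
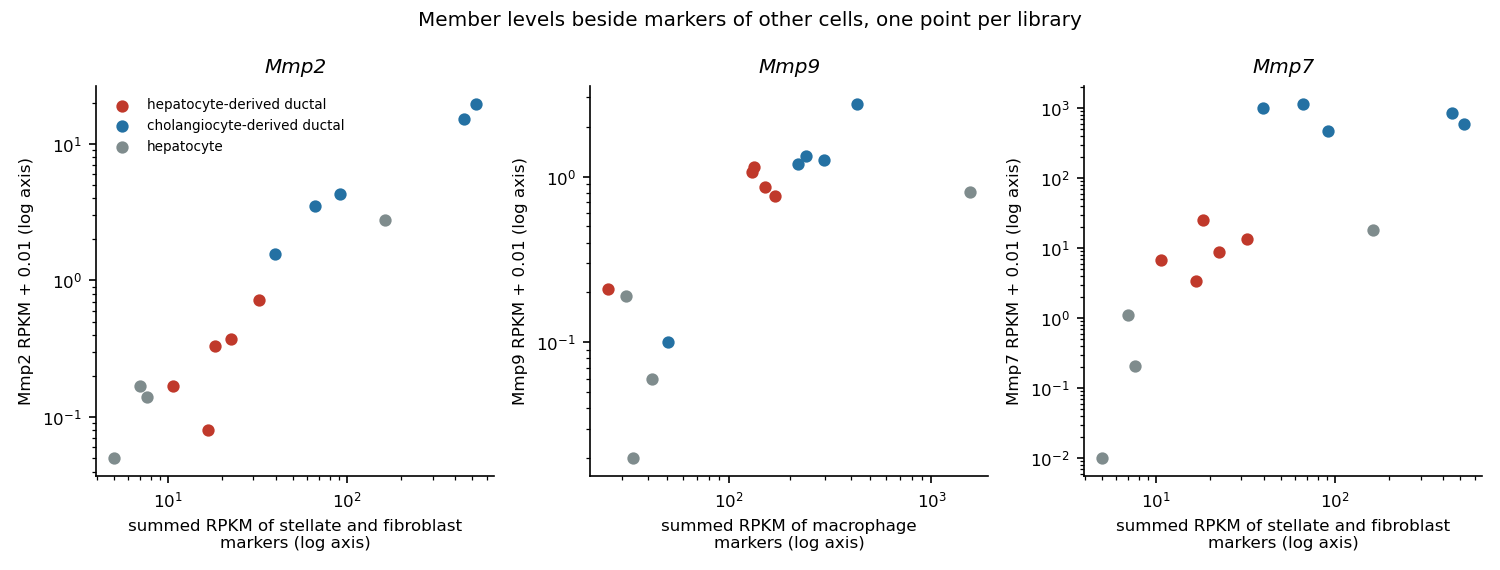
Levels of Mmp2, Mmp9 and Mmp7 in RPKM (vertical log axes, 0.01 added) beside summed markers of other cells in RPKM (horizontal log axes), with a point per library for hepatocyte-derived cells (red), cholangiocyte-derived cells (blue) and hepatocytes (grey). Mmp2 is highest in the cholangiocyte-derived libraries with stellate sums of 450.5 and 522.9 RPKM, while Mmp7 is at 472.34 RPKM or more in all 5 cholangiocyte-derived libraries whatever their stellate sum.

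Mmp9 (NM_013599, chromosome 2, 164773751 to 164781346) was low everywhere. Hepatocyte-derived cells had 0.2, 0.86, 1.14, 0.75 and 1.05 RPKM, cholangiocyte-derived cells 2.74, 0.09, 1.25, 1.18 and 1.32, and hepatocytes 0.8, 0.01, 0.05 and 0.18. The groups overlapped in all 3 comparisons. Only cholangiocyte-derived cells against hepatocytes passed the test (0.81 ± 0.29 on the log2 scale, adjusted p = 0.0183), and this call ended without hepatocyte library 225 (0.72, adjusted p = 0.0540) or 248 (0.74, adjusted p = 0.0505) and after rescaling by median ratios (0.59, adjusted p = 0.0822). Under quantile normalization the direction turned (-0.24, adjusted p = 0.324). Hepatocyte-derived cells differed from hepatocytes by 0.53 ± 0.29 (adjusted p = 0.111), which became a call without hepatocyte library 118 (0.71, adjusted p = 0.0414) and without cholangiocyte-derived library 219, which enters the shared spread (0.53, adjusted p = 0.0432). The difference of hepatocyte-derived from cholangiocyte-derived cells was -0.29 ± 0.28 (adjusted p = 0.465).

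Markers of macrophages and neutrophils were lowest where Mmp9 was lowest in each ductal group, but did not follow it across all libraries. Hepatocyte library 118 had the highest macrophage sum of all (1546.5 RPKM) with 0.8 RPKM of Mmp9, less than hepatocyte-derived libraries 220, 225 and 611. Hepatocyte-derived library 248 had the highest macrophage sum of its group with 0.75 RPKM of Mmp9. Cholangiocyte-derived libraries had the same order by Mmp9 as by the neutrophil sum. In each ductal group library 219 had the lowest Mmp9 and also the lowest sum of the 12 macrophage markers, at 25.6 RPKM for hepatocyte-derived cells (130.6 to 170 in the other 4) and 50.2 for cholangiocyte-derived cells (219.9 to 431 in the other 4). Its 7 neutrophil markers summed to 0.39 RPKM in hepatocyte-derived cells (25.4 to 57.7 in the others) and 2.04 in cholangiocyte-derived cells (25.3 to 142). Lyz2 and S100a9 were the most abundant of these lists. The Kupffer cell genes Marco and Timd4 were at 0 in both libraries numbered 219. The macrophage marker Csf1r was not lower there and was the largest part of both sums. It was at 22.82 RPKM in the hepatocyte-derived library (19.85 to 24.32 in the others) and 42.98 in the cholangiocyte-derived one (38.99 to 50.36). Of the neutrophil granule genes, Mpo was at 0 in 11 of 14 libraries. The part of these cells in the Mmp9 values was not tested.

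Mmp14 and Mmp15, the membrane-type members, were the most abundant metalloproteinases of the 6 in hepatocyte-derived cells. Mmp14 (NM_008608, chromosome 14, 55050441 to 55060095) encodes MT1-MMP, a collagenase of the cell surface. Its level was 192.03, 176.3, 189.43, 185.46 and 166.04 RPKM in hepatocyte-derived cells. In cholangiocyte-derived cells it was 161.25, 178.71, 153.67, 144.87 and 127.04 RPKM, and in hepatocytes 31.63, 47.33, 47.06 and 52.05. Both ductal groups lay wholly above the hepatocytes and overlapped with each other. The log2 fold change against hepatocytes was 2.03 ± 0.13 (SE, adjusted p = 3.81e-09) for hepatocyte-derived and 1.77 ± 0.13 (adjusted p = 9.38e-09) for cholangiocyte-derived cells, with ratios of means of 4.08 and 3.44. Each of these values was above the median over all genes of its comparison. The ductal groups differed by 0.25 ± 0.12 (adjusted p = 0.131), which became a call without hepatocyte library 118 (adjusted p = 0.0239).

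Mmp15 (NM_008609, chromosome 8, 97876237 to 97898193) encodes MT2-MMP, a related surface protease. It stood at 120.33, 122.77, 110.81, 100.4 and 91.46 RPKM in hepatocyte-derived cells, 75.2, 94.11, 75.74, 71.6 and 63.03 in cholangiocyte-derived cells and 66.52, 85.25, 81.41 and 51.54 in hepatocytes. Hepatocyte-derived cells lay above every hepatocyte library, and a single cholangiocyte-derived library, 219, reached into their range. The log2 fold change of hepatocyte-derived against cholangiocyte-derived cells was 0.52 ± 0.14 (SE, adjusted p = 0.00926). Against hepatocytes it was 0.63 ± 0.15 (adjusted p = 0.00135) for hepatocyte-derived cells, which is close to the median of all genes in that comparison, and rescaling by median ratios turned it to -0.17 (adjusted p = 0.287). For cholangiocyte-derived cells it was 0.11 ± 0.15 (adjusted p = 0.512), and the rescaled value was -0.72 (adjusted p = 2.47e-04), a call in the lower direction. A direction of Mmp15 against hepatocytes thus depends on the scaling of the libraries.

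Mmp19, a secreted protease known to cut basement membrane proteins, was the only one of the 6 proteases with its highest mean level in hepatocytes. The transcript row used (NM_001164197, 1 of 2 rows, chromosome 10, 128227966 to 128237880) was at 21.02, 21.47, 20.61, 18.88 and 14.22 RPKM in hepatocyte-derived cells. It was at 7.78, 9.29, 7.26, 7.22 and 5.01 RPKM in cholangiocyte-derived cells and at 32.01, 38.32, 36.22 and 38.08 RPKM in hepatocytes. The groups did not overlap, and hepatocyte-derived cells lay between the others. Mmp19 was lower than in hepatocytes with log2 fold changes of -0.89 ± 0.15 (SE, adjusted p = 5.20e-05) in hepatocyte-derived and -2.18 ± 0.15 (adjusted p = 3.00e-09) in cholangiocyte-derived cells. Hepatocyte-derived cells exceeded cholangiocyte-derived cells by 1.29 ± 0.14 (adjusted p = 3.66e-06). On the opposite strand Mmp19 overlaps 1110012D08Rik (10.31 to 22.58 RPKM), and the library kit does not mark strand, so reads of the overlap cannot be told apart.

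**Figure D3:**
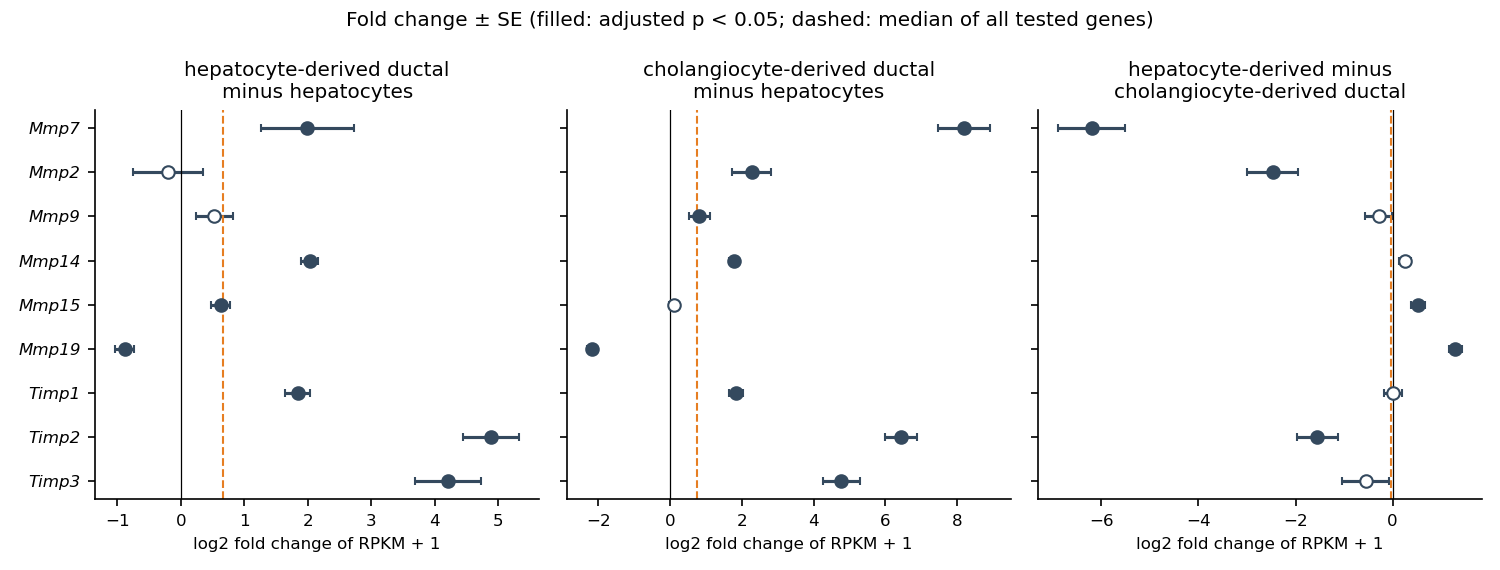
Log2 fold change of RPKM + 1 with its SE (horizontal bars) for the 9 tested genes in hepatocyte-derived cells against hepatocytes, cholangiocyte-derived cells against hepatocytes, and hepatocyte-derived against cholangiocyte-derived cells. Filled points have an adjusted p under 0.05 and the dashed line is the median over all 12638 tested genes (0.67, 0.76 and -0.03). Mmp7 has the widest difference between the ductal groups, at -6.20, and Mmp19 is the only one of the 9 called lower than in hepatocytes.

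Among the inhibitors, Timp2 and Timp3 were ductal transcripts, near 0 in hepatocytes apart from library 118. Timp2 (NM_011594, chromosome 11, 118162375 to 118216725, minus strand) encodes a secreted inhibitor that also takes part in the activation of Mmp2 by Mmp14. Its level was 65.3, 56.18, 56.43, 56.67 and 58.26 RPKM in hepatocyte-derived cells. Cholangiocyte-derived cells had 183.65, 163.45, 186.76, 176.92 and 156.49 RPKM, and hepatocytes 7.52, 0.11, 0.27 and 0.36. The groups did not overlap, and each ductal group held a narrow range. Means were 58.6 ± 3.85, 173 ± 13.0 and 2.07 ± 3.64 RPKM (SD, n = 5, 5 and 4), with 0.247 RPKM in hepatocytes without library 118. Against hepatocytes the log2 fold change was 4.89 ± 0.44 (SE, adjusted p = 1.13e-07) for hepatocyte-derived and 6.44 ± 0.44 (adjusted p = 4.00e-09) for cholangiocyte-derived cells. The corresponding ratios of means, 28.4 and 84.0, became 237 and 703 without library 118.

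Hepatocyte-derived cells held 33.8% of the cholangiocyte-derived mean of Timp2, with single libraries at 32.4% to 37.6%. The log2 fold change between the ductal groups was -1.55 ± 0.42 (adjusted p = 0.00874). With the library number as a replicate block it was -1.09 (adjusted p = 0.0892), and with a pseudocount of 0.1 it was -1.56 (adjusted p = 0.101), so the call ended under both. Over all alternatives its adjusted p ran down to 1.83e-09, the value without hepatocyte library 118. With the ductal groups fitted alone and the block kept, the value was -1.45 (adjusted p = 5.96e-04).

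Timp3 (NM_011595, chromosome 10, 85763157 to 85812250) encodes an inhibitor that stays bound to the matrix and also blocks several ADAM proteases. It was at 43.42, 40.47, 32.65, 41.52 and 39.05 RPKM in hepatocyte-derived cells, 71.69, 44.48, 71.35, 44.96 and 63.82 in cholangiocyte-derived cells and 10.34, 0.11, 0.3 and 0.36 in hepatocytes. Both ductal groups lay above all hepatocytes, and the cholangiocyte-derived libraries lay above the hepatocyte-derived ones, 219 and 225 only narrowly. Against hepatocytes the log2 fold change was 4.21 ± 0.52 (SE, adjusted p = 2.96e-06) for hepatocyte-derived and 4.76 ± 0.52 (adjusted p = 6.54e-07) for cholangiocyte-derived cells. The ductal groups differed by -0.55 ± 0.49 (adjusted p = 0.425), which became a call without hepatocyte library 118 (-0.55, adjusted p = 0.00599). With the replicate block in the fit of all groups the value was near 0 (adjusted p = 0.999). With the ductal groups fitted alone it was -0.55 (adjusted p = 0.0101), and -0.39 with the block kept (adjusted p = 0.0801). Library weights gave a call (-0.74, adjusted p = 0.00381). Endothelial and macrophage markers moved with Timp3 within the cholangiocyte-derived cells, where the libraries had the same order by Timp3 as by either sum. Within hepatocyte-derived cells they did not. There library 219 had the most Timp3 (43.42 RPKM) and the lowest endothelial and macrophage sums (23.1 and 25.6 RPKM). The 12 endothelial markers summed to 23.1 to 64.3 RPKM in hepatocyte-derived cells, 22.7 to 171 in cholangiocyte-derived cells and 9.96 to 291 in hepatocytes, and 9, 12 and 12 of them reached 1 RPKM. The 12 macrophage markers summed to 25.6 to 170, 50.2 to 431 and 31.4 to 1546.5 RPKM in these groups. Clec4g and Lyz2 were the most abundant, and the part of these cells in the Timp3 values was not tested. Timp3 lies within Syn3 on the opposite strand, which was at 0.39 to 3.88 RPKM.

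Timp1, an inhibitor known as a product of injured and scarring liver, did not follow this division of the ductal groups. Its transcript (NM_011593, 1 of 2 rows, chromosome X, 20447292 to 20451863) was at 14.84, 11.48, 17.59, 23.59 and 20.23 RPKM in hepatocyte-derived and 19.95, 19.27, 17.85, 18.02 and 11.4 RPKM in cholangiocyte-derived cells. Hepatocytes had 5.6, 3.48, 3.68 and 3.68 RPKM and overlapped with neither ductal group. The log2 fold change against hepatocytes was 1.84 ± 0.20 (SE, adjusted p = 8.29e-07) in hepatocyte-derived and 1.83 ± 0.20 (adjusted p = 6.78e-07) in cholangiocyte-derived cells. Between the ductal groups the difference was 0.00 ± 0.19 (adjusted p = 0.988), and its sign turned when single libraries were left out (-0.13 to 0.14). Timp1 lies within Syn1 on the opposite strand, which was at or below 0.25 RPKM.

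Timp4 was at the edge of detection, with 0.26 to 0.84 RPKM in hepatocyte-derived cells, 0.21 to 0.41 in cholangiocyte-derived cells and 0.3 to 0.81 in hepatocytes. It did not pass the filter on low values. In a fit without that filter its log2 fold change was 0.02 (adjusted p = 0.92) and -0.22 (adjusted p = 0.0818) for hepatocyte-derived and cholangiocyte-derived cells against hepatocytes, and 0.24 (adjusted p = 0.0935) between the ductal groups. It lies within Syn2 on the opposite strand, whose level of 0.09 to 2.52 RPKM was of similar size.

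The summed levels set the whole group of proteases beside the whole group of inhibitors. The 6 metalloproteinase transcripts summed to 340.4, 335.6, 325.5, 314.8 and 298.4 RPKM in hepatocyte-derived cells. The sum was 1107.6, 758.8, 840.2, 1242.9 and 1352.5 RPKM in cholangiocyte-derived cells and 152.1, 170.9, 165.1 and 143.1 in hepatocytes. The groups did not overlap. Without Mmp7 the order of the ductal groups turned, to 311 ± 23.6 RPKM in hepatocyte-derived and 246 ± 33.7 in cholangiocyte-derived cells (SD, n = 5 each), with 153 ± 17.8 in hepatocytes (n = 4). These sums were not tested.

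By the mean over libraries, a different transcript led the protease sum in each population. Mmp14 made up 56.3 ± 2.5% of it in hepatocyte-derived cells, Mmp7 75.0 ± 9.3% in cholangiocyte-derived cells and Mmp15 44.7 ± 6.4% in hepatocytes, although in hepatocyte library 611 Mmp14 (52.05 RPKM) was level with Mmp15 (51.54 RPKM). Mmp7 was 3.7% of the sum in hepatocyte-derived cells. In hepatocytes its share was 12.0% in library 118, with a lowest value of 0 and a median of 0.45% over the 4 libraries. Mmp19 made up 5.9%, 0.75% and 23.0% of the sum in hepatocyte-derived cells, cholangiocyte-derived cells and hepatocytes.

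The 4 inhibitors summed to 124.4, 108.8, 107.3, 122.4 and 117.8 RPKM in hepatocyte-derived cells, 275.7, 227.6, 276.4, 240.3 and 231.9 in cholangiocyte-derived cells and 24.1, 4.51, 4.84 and 4.7 in hepatocytes. Timp2 was the largest share in both ductal groups, at 50.5 ± 2.7% and 69.4 ± 3.1%, and Timp1 in hepatocytes, where it made up 23.2% to 78.3%. Only hepatocyte library 118 was above 5 RPKM among the hepatocytes, and there Timp3 was the largest share. The sum of inhibitors divided by the sum of proteases was 0.361 ± 0.033 in hepatocyte-derived and 0.249 ± 0.067 in cholangiocyte-derived cells (SD, n = 5 each). It was 0.158 in hepatocyte library 118 and 0.026 to 0.033 in the other 3 hepatocyte libraries. The ratio ranged over 0.324 to 0.395 in hepatocyte-derived and 0.171 to 0.329 in cholangiocyte-derived cells, and these ranges overlapped. This is a ratio of transcripts and not of active proteins.

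**Figure D4:**
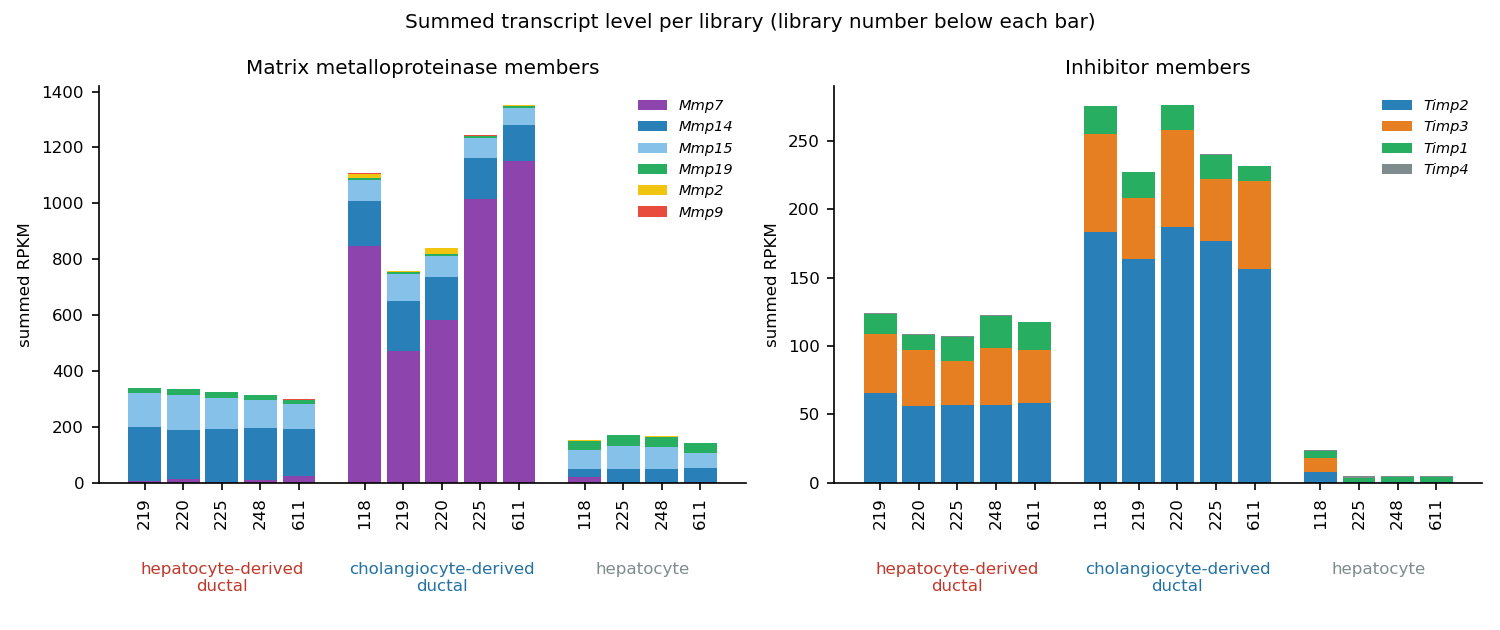
Stacked RPKM of the 6 metalloproteinase genes (left) and the 4 inhibitor genes (right) in each library, with hepatocyte-derived cells, cholangiocyte-derived cells and hepatocytes from left to right. Mmp7 fills most of the protease bars of cholangiocyte-derived cells, Mmp14 and Mmp15 fill most of those of hepatocyte-derived cells, and the inhibitor bar of hepatocyte library 118 (24.1 RPKM) stands above those of the other hepatocytes (4.51 to 4.84 RPKM).

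Of the 17 other metalloproteinase genes in the table, 13 stayed too low for the test, none above 2.01 RPKM in any library. They include the collagenase genes Mmp8 and Mmp13 and the stromelysin genes Mmp3 and Mmp10. The other 4 were tested, of which 3 were higher than in hepatocytes in hepatocyte-derived cells and 2 in cholangiocyte-derived cells, and 2 were higher in hepatocyte-derived than in cholangiocyte-derived cells, with none lower. Over all tested genes 66.2%, 67.1% and 15.1% were called higher in these comparisons. Mmp11, or stromelysin 3, a protease activated inside the cell by furin, stood at 29.7 ± 4.29 RPKM in hepatocyte-derived cells, 19.7 ± 2.96 in cholangiocyte-derived cells and 0.303 ± 0.070 in hepatocytes. Its log2 fold changes against hepatocytes were 4.55 ± 0.12 (SE, adjusted p = 1.32e-12) and 3.98 ± 0.12 (adjusted p = 1.25e-12), and the ductal groups differed by 0.57 ± 0.11 (adjusted p = 9.42e-04). Mmp23, a membrane-bound member, averaged 7.08 and 10.7 RPKM in hepatocyte-derived and cholangiocyte-derived cells and was called against hepatocytes in both. Hepatocyte library 118 had 1.0 RPKM and the other hepatocyte libraries 0.03, 0.23 and 0.16. Mmp24, which encodes a membrane-type protease, averaged 10.9, 5.75 and 4.50 RPKM in the 3 populations and was higher in hepatocyte-derived cells than in both others. Its call against hepatocytes ended under quantile normalization (0.19, adjusted p = 0.302). The macrophage elastase gene Mmp12 passed no test in the main fit. Its highest level, 18.77 RPKM, was in hepatocyte library 118, against 0.13 to 0.6 in the other hepatocyte libraries. Without that library, all 4 tested genes in place of 2, Mmp12 among them, were called higher in cholangiocyte-derived cells than in hepatocytes. In that fit 1 gene was called lower in hepatocyte-derived than in cholangiocyte-derived cells. Leaving out cholangiocyte-derived library 611 likewise gave 1 lower.

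The ADAM and ADAMTS proteases share the metalloproteinase fold, and Timp3 inhibits several of them. Of 14 tested genes out of 20, 12 rose in hepatocyte-derived and 12 in cholangiocyte-derived cells against hepatocytes, with none lower. The median log2 fold changes were 1.58 and 2.48, beside 0.67 and 0.76 over all tested genes, of which 66.2% and 67.1% were called higher. Adamts9, which cuts the proteoglycan versican, stood at 24.9 ± 9.34 RPKM in hepatocyte-derived and 46.4 ± 8.53 in cholangiocyte-derived cells, against 0.218 ± 0.332 in hepatocytes. Adam10, a sheddase of many surface proteins, averaged 61.4, 56.0 and 21.8 RPKM in the same groups. Of the same genes, 1 was higher in hepatocyte-derived than in cholangiocyte-derived cells and 6 were lower, with a median of -0.28, beside 15.1% higher and 21.0% lower over all tested genes. The higher one was Adamts14, a procollagen-processing enzyme, at 9.77 ± 1.99 against 1.20 ± 0.776 RPKM (2.33 ± 0.21, adjusted p = 9.10e-07). Adam8, a sheddase, was lower at 1.47 ± 0.262 against 21.5 ± 6.88 RPKM (-3.15 ± 0.28, adjusted p = 7.74e-07), and Adamts5 and Adamts15 were lower by -1.45 and -1.29. Without hepatocyte-derived library 611, hepatocyte library 118 or hepatocyte library 248, 2 genes in place of 1 were called higher between the ductal groups.

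The plasminogen system generates plasmin, which degrades matrix and activates several metalloproteinase precursors. Of its 11 tested genes out of 13, 5 were higher and 4 lower in hepatocyte-derived cells than in hepatocytes, and 6 were higher and 4 lower in cholangiocyte-derived cells. Over all tested genes 66.2% were called higher and 14.8% lower in the first of these comparisons, and 67.1% and 17.4% in the second. Medians were 0.71 and 0.58, beside 0.67 and 0.76. Plat, the tissue plasminogen activator, rose to 50.7 ± 14.3 RPKM in hepatocyte-derived and 47.0 ± 9.32 in cholangiocyte-derived cells, against 2.18 ± 0.993 in hepatocytes. Plg, plasminogen itself and a product of hepatocytes, fell to 128.2 ± 35.5 and 45.3 ± 9.46 RPKM, against 1087 ± 198. The ductal groups differed for 6 genes, 3 higher and 3 lower in hepatocyte-derived cells (median 0.08), beside 15.1% higher and 21.0% lower over all tested genes. Among them Plau, urokinase, was lower at 1.61 ± 0.786 against 17.7 ± 3.67 RPKM in cholangiocyte-derived cells (-2.87 ± 0.35, adjusted p = 1.44e-05).

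Other regulators of metalloproteinases (activating proteases, inducers, other inhibitors and clearance receptors) gave 9 higher and 6 lower genes of 18 tested in hepatocyte-derived cells against hepatocytes, and 10 higher and 6 lower in cholangiocyte-derived cells. The medians were 0.38 and 0.35, below those over all genes, of which 66.2% were called higher and 14.8% lower in the first comparison and 67.1% and 17.4% in the second. Tfpi2, a secreted serine protease inhibitor, was lower at 4.75 ± 0.394 and 1.86 ± 0.290 RPKM, against 38.3 ± 4.69 in hepatocytes. Cav1, the caveolin of membrane pits, was higher at 173.9 ± 47.5 and 76.2 ± 17.7 RPKM, against 2.69 ± 1.53. Reck, a membrane-anchored inhibitor of metalloproteinases, was higher in hepatocyte-derived cells, at 2.55 ± 0.315 RPKM against 0.350 ± 0.166 in hepatocytes. For hepatocyte-derived against cholangiocyte-derived cells 8 genes were higher and 5 lower (median 0.33), beside 15.1% higher and 21.0% lower over all tested genes. St14, the surface serine protease matriptase, was lower at 24.4 ± 4.51 against 115.5 ± 5.89 RPKM (-2.21 ± 0.14, adjusted p = 3.10e-08), and A2m, a broad protease trap, was higher at 3.23 ± 1.33 against 0.468 ± 0.245 RPKM. Without hepatocyte-derived library 225, cholangiocyte-derived library 225 or cholangiocyte-derived library 611, 5 genes in place of 8 were called higher.

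AP-1 and ETS factors are the transcription factors best known to act on metalloproteinase genes. All 15 tested genes of this list of 16 were higher in hepatocyte-derived cells than in hepatocytes, and all 15 in cholangiocyte-derived cells, with medians of 2.0 and 2.63 beside 0.67 and 0.76 over all tested genes, of which 66.2% and 67.1% were called higher. Ehf, an epithelial ETS factor, stood at 45.4 ± 9.19 RPKM in hepatocyte-derived and 173.1 ± 12.3 in cholangiocyte-derived cells, against 0.943 ± 1.00 in hepatocytes. Etv4, another ETS factor, had the other order of ductal groups, with 24.4 ± 5.70, 6.88 ± 1.12 and 0.260 ± 0.058 RPKM. When the ductal groups were compared, Etv4 was the only gene higher in hepatocyte-derived cells (1.67 ± 0.14, adjusted p = 3.54e-07), and Ehf, Elf3 and Fosl2 were the 3 lower ones (-1.93, -1.38 and -0.78). The median was -0.32 beside -0.03 over all tested genes, of which 15.1% were called higher and 21.0% lower, so these counts are near or below the background. Without hepatocyte library 118 the counts were 2 higher and 5 lower, and without hepatocyte-derived library 220, cholangiocyte-derived library 219 or cholangiocyte-derived library 225 they were 5, 6 and 5 lower. Fosl2 lost its call when both libraries numbered 118 and cholangiocyte-derived library 220 were left out (-0.57, adjusted p = 0.0653).

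The genes most like each member across the 14 libraries were found by the root mean square difference of centred log2(RPKM + 1) values, with 2 genes named per member. For Mmp7 these were Muc1, a surface mucin, and Gabrp, a subunit of the GABA type A receptor (differences of 0.741 and 0.965 on the log2 scale). Muc1 averaged 4.63 RPKM in hepatocyte-derived cells, 258 in cholangiocyte-derived cells and 0.865 in hepatocytes. Mmp19 was most like Hnf4a, a hepatocyte transcription factor (0.132), which averaged 130.3, 58.3 and 236 RPKM in these groups, followed by AI464131 (0.135). Timp2 was most like the annexin genes Anxa13 (0.313) and Anxa3 (0.330), and Timp3 like Ecscr (0.355) and Marcksl1 (0.370). Mmp14 was most like Zfp219 (0.114) and Zfp553 (0.128), Mmp15 like Frmd4b (0.12) and Grn (0.136), and Timp1 like Zfp105 (0.211) and Tubb4 (0.219). For Mmp2 the nearest genes were Adamtsl2 (0.192) and Dpt (0.199), a dermal matrix protein, and for Mmp9 they were Itgam (0.205), the gene of the CD11b antigen used to exclude cells in the sort, and Cd300lf (0.215). Likeness over so few libraries is a description, since all genes share the libraries and the 3 populations.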

How the data were processed

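RNA of sorted cells was sequenced in 14 libraries, prepared from 75 to 200 ng of total RNA with an Illumina TruSeq kit that selects polyadenylated RNA and does not mark strand, per the labels' protocols. The authors deposited a table of RPKM values with 26005 transcript rows, rounded to 2 decimals, and no read totals. The submitters' processing notes name build mm9, CASAVA and Bowtie 0.12.7, and how reads were counted is not given in the sources used here. The names of 12 columns each fit only 1 sample title. The other 2 carry the number 220 where 2 titles carry 120, and were matched to their group only. All 4 hepatocyte libraries in the table were used, where the design text counts 3. No libraries shared more than 2.928% identical values. Start positions count from 0 in the table and from 1 here. Whether libraries come from separate mice is not stated, so a p-value covers the spread of these samples alone, which may be technical.

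Depth was estimated from the steps between low values of transcripts of 150 to 1000 nt, with lengths from GENCODE vM21 (20700000 to 29600000 reads), and from olfactory receptor rows (24300000 to 34900000 reads). A single read on 1 kb is then worth 0.0287 to 0.0483 RPKM. The test took 12638 symbols that reached 1 RPKM in 4 or more libraries, on the log2(RPKM + 1) scale, and used limma 3.58.1 (R 4.3.3) with all 3 groups in a fit and a trend of variance on mean. P-values are two-sided and adjusted by Benjamini-Hochberg over all tested genes, and the steps were checked on simulated data. A fold change on this scale understates that of low genes, and a ratio compares mean RPKM. Tables and plots used Python 3.11.15, numpy 2.4.6, pandas 2.3.3 and matplotlib 3.10.9.

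The genes, marker lists and pathway lists were chosen with earlier results of these data known. Besides the 10 genes, the text names per comparison up to 4 called genes of each pathway list with the smallest adjusted p, the 2 genes most like each member, and marker genes. Other named genes were chosen after their values were seen. Alternatives changed the pseudocount, filter, scaling, groups fitted, transcript rows, library weights, replicate block and libraries. Same-numbered libraries of the 2 ductal groups deviated together from their group means. Their correlations across genes were 0.212 to 0.797 (3 pairs), beside -0.564 to 0.202 in the 13 pairs of unlike number. The number in the titles was therefore taken to pair the ductal libraries. For cholangiocyte-derived ductal cells and hepatocytes the values were 0.133 to 0.512 (3 pairs) and -0.467 to 0.458 (13 pairs). These ranges overlap, so a pairing there was not settled. The main fit held the group alone, and the number entered only as a block among the alternatives. Its p-values between the ductal groups therefore leave out the pairing of the ductal libraries.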

Additional observations from a re-analysis of the deposited data

Results flagged for a closer look

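In each group, the highest or lowest library was set against the others by its gap to the nearest, relative to the range of the group, on the log2(RPKM + 1) scale. Of 30 sets of values (10 genes in 3 groups), 7 had a library that stood apart, where chance gives about 1 in 20. Hepatocyte library 118 did so in 4 sets, above the other 3 hepatocyte libraries. It had 2.78 RPKM of Mmp2 against 0.04 to 0.16, 5.6 RPKM of Timp1 against 3.48 to 3.68, 7.52 RPKM of Timp2 against 0.11 to 0.36, and 10.34 RPKM of Timp3 against 0.11 to 0.36. Its Mmp7 level of 18.32 RPKM, against 0 to 1.11, also lay above the others but did not meet this criterion on the log2 scale. Markers of macrophages, stellate cells, endothelium and ductal cells were also higher there, and their part in these values was not tested. Cholangiocyte-derived library 611 was low in 2 sets, with 11.4 RPKM of Timp1 against 17.85 to 19.95 and 0.21 RPKM of Timp4 against 0.36 to 0.41. Hepatocyte-derived library 219 was high for Timp2, at 65.3 RPKM against 56.18 to 58.26.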

How the results depend on the processing

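Over the alternatives run, 651 recomputed fold changes of the 9 tested genes kept their direction and their side of the threshold, 14 lost a call, 13 gained one and 15 turned direction. Under rescaling by median ratios the genes called higher and lower were 4670 and 4612 for hepatocyte-derived ductal cells against hepatocytes and 5051 and 4821 for cholangiocyte-derived ductal cells against hepatocytes, and under quantile normalization 4596 and 4136, and 4891 and 4769. Between the ductal groups, higher genes numbered 3069 under quantile normalization and 2987 with library weights. Median ratios gave 2 of the 9 genes lower in cholangiocyte-derived cells than in hepatocytes, and Mmp15 at -0.1679 and -0.7223 in hepatocyte-derived and cholangiocyte-derived cells against hepatocytes. Weights gave Mmp15 -0.0784 in cholangiocyte-derived cells, and leaving out a library -0.0373 to 0.2011. Quantile normalization gave Mmp9 -0.2082 and -0.2352 against hepatocytes and 0.027 between the ductal groups. Mmp2 in hepatocyte-derived cells against hepatocytes was 0.15 with weights, 0.1293 with the replicate block, 0.1649 with the block in a fit of 2 groups, and -0.3836 to 0.237 without single libraries. Timp1 between the ductal groups was -0.1297 to 0.1378 without single libraries. The causes were not tested.

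Counts in the pathway lists moved as follows. For the other metalloproteinase genes, 7 were higher in cholangiocyte-derived cells than in hepatocytes without a filter, 2 to 4 without single libraries, and 1 was lower under median ratios and quantile normalization. Between the ductal groups 2 were lower without a filter, 1 with weights, pseudocount 5 or the block in a fit of 2 groups, and 0 to 1 without single libraries. For ADAM and ADAMTS genes, 1 was lower in hepatocyte-derived cells than in hepatocytes with weights or quantile normalization and 2 with median ratios, and in cholangiocyte-derived cells 1 was lower with either scaling. Between the ductal groups 2 were higher in a fit of 2 groups, with or without the block, with pseudocount 5 and with quantile normalization, 3 with weights, and 1 to 2 without single libraries, while 10 were lower with weights. For AP-1 and ETS factors 2 were higher between the ductal groups in fits of 2 groups, with weights, pseudocount 5, quantile normalization and without both libraries 118 and cholangiocyte-derived 220, and 1 to 2 without single libraries. Those lower were 6 with the block in a fit of 2 groups, 10 with weights, 5 with pseudocount 5 or quantile normalization, and 3 to 6 without single libraries. For the other regulators 6 were higher in cholangiocyte-derived cells than in hepatocytes with median ratios, and between the ductal groups 5 to 8 were higher without single libraries and 3 lower without those 3 libraries.

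With the replicate block, 1562 genes were higher and 2227 lower between the ductal groups, and Timp2 lost its call. Among the members no other call changed between the ductal groups or for cholangiocyte-derived cells against hepatocytes. For hepatocyte-derived ductal cells against hepatocytes a pairing by number was not settled. Correlations were 0.021 to 0.193 for like numbers and -0.357 to 0.437 for unlike ones. Libraries 225 and 611 correlated best with the hepatocyte library of their own number, but 248 correlated better with hepatocyte library 118 (0.077). The block gave 8278 higher and 1897 lower genes and called Mmp9. Both ductal libraries numbered 220 had a block level each. The fit of 2 groups with the block was chosen after seeing the data. RPKM in 2 decimals limits Timp4 and Mmp9, whose low values rest on few reads.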
